A study of Mus musculus with 8 samples.

Results

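Mitochondrial fatty acid oxidation and ketogenesis were described here through 35 genes, taken by symbol from the 55385 gene identifiers of a liver transcriptome. All 35 symbols were found. The genes fell into activation of fatty acids (7 genes), the carnitine shuttle (7), the acyl-CoA dehydrogenases (7), the remaining enzymes of the beta-oxidation cycle (8), the electron transfer flavoprotein system (3), an acyl-CoA thioesterase (1) and ketone body metabolism (2). Liver RNA came from 4 *Usp39*-HKO mice, in which *Usp39* fl/fl was combined with *Alb-Cre*, and from 4 control littermates that the labels call WT. All were males on a C57BL/6J background, 5 weeks old and fasted for 16 h, and each library was made from 1 mouse. The recombinase is driven by the albumin promoter, and the study describes the deletion as specific to hepatocytes. Whether all other liver cells keep *Usp39*, which encodes a component of the spliceosome, was not tested here. In such bulk tissue, fewer cells of a type and less RNA per cell cannot be told apart.

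In the liver, fasting releases fatty acids from adipose tissue, and hepatocytes burn them in mitochondria. Long-chain fatty acids are first joined to coenzyme A, then pass the mitochondrial membranes as carnitine esters, and are shortened in a repeating cycle of dehydrogenation, hydration, a further dehydrogenation and thiolysis. The electrons reach the respiratory chain through the electron transfer flavoprotein, and much of the acetyl-CoA formed is turned into ketone bodies for other organs. Many genes of this route are targets of the nuclear receptor PPARα, which binds DNA with its partner RXR at direct repeats of AGGTCA separated by 1 base, as does the hepatocyte receptor HNF4A.

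The sequences upstream of 4 genes on which the results below turn are shown for orientation, read from RefSeq on GRCm38.p6 (mm10) and written 5′ to 3′ on the strand of the gene. *Acsl1* is shown as the gene with the highest level among those that fell, *Acot2* as the one with the largest rise and *Eci1* as the isomerase that fell. *Echs1* is shown as the only one of the called genes searched whose window held a near match to the direct repeat. Each run is the 250 bases before the RefSeq start, chr8:46470787-46471036 (the first of its 2 RefSeq starts) on the plus strand, chr12:83987611-83987860 on the plus strand, chr17:24426433-24426682 on the plus strand and chr7:140116422-140116671 on the minus strand. Capitals mark the near match, which allows 2 mismatches to the direct repeat.
*Acsl1*: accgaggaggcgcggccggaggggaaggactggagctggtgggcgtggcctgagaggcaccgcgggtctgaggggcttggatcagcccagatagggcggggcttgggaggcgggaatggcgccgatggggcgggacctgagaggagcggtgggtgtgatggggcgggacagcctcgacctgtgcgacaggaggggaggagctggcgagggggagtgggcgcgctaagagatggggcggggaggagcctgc
*Acot2*: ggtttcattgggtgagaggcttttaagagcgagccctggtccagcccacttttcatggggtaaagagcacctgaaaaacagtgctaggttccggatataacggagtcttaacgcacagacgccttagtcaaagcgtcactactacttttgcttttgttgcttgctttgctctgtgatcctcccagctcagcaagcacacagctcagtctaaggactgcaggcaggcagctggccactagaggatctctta
*Eci1*: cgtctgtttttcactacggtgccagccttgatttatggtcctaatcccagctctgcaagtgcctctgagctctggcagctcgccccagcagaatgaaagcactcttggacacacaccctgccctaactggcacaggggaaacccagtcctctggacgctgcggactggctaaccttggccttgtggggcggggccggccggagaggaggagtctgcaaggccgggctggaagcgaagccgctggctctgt
*Echs1*: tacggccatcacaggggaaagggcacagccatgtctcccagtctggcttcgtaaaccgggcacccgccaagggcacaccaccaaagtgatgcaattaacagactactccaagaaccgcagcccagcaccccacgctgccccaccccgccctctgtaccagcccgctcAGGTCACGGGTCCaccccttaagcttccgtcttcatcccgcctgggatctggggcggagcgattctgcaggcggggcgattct
The *Acsl1* run is rich in G and C (72.0%, with 20 CpG dinucleotides), whereas that of *Acot2* is not (50.4%, with 6 CpG dinucleotides). RefSeq windows of 300 bases, 250 before the start and 50 after it, were found for 30 of the 35 genes, in 32 windows. No window was found for *Acat1*, so that called gene was not searched. None of the 32 windows held the repeat with at most 1 mismatch on either strand, a class that 0.554% of all 32851 windows held. With 2 mismatches allowed it was found in 3 windows (9.38%), those of *Echs1*, *Etfa* and *Slc25a20*, against 3.86% of all windows. These are matches of letters in a short window and say nothing on binding outside it. The match of *Echs1* began 83 bases before the start.

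A 5th sequence is shown because it joins both subunits of one enzyme. *Hadha* and *Hadhb*, which encode the 2 subunits of the mitochondrial trifunctional protein, lie head to head on chromosome 5, with only 85 bases between their annotated starts (chr5:30155163-30155247 of GRCm38, plus strand, 69.4% G and C).
*Hadha* to *Hadhb*: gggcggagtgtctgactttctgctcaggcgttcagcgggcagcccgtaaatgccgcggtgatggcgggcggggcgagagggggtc
The levels of this pair are compared below.

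Total counts ranged from 8589636 to 10418450 per library. *Usp39* itself had 9.35, 10.4, 8.76 and 9.78 FPKM in controls (fragments per kilobase of exon, scaled to the library total) and 8.37, 8.63, 8.70 and 8.07 FPKM in *Usp39*-HKO livers, so that every *Usp39*-HKO value lay below every control value. Its log2 fold change was −0.41 (standard error, SE, of 0.11, derived from the test statistic, adjusted p = 0.0212 in edgeR). The call was lost without scaling factors. It was also lost without *Usp39*-HKO mouse A474 (adjusted p = 0.0615) or control mouse A475 (0.0547). Reads of the exons outside the deleted exon 2 are still counted. Hepatocyte markers summed to between 16049 and 17801 FPKM in controls and between 14465 and 19167 FPKM in *Usp39*-HKO livers. Of the 8, 3 fell, beside 11.6% of all genes tested. All 8 had a negative log2 fold change, with a median of −0.41. Without scaling factors none was called and the median was −0.18, while 4.85% of all genes tested fell. Control mouse A475 carried RNA of pancreas genes, whose 6 markers summed to 290.2 FPKM in it and to at most 3.65 FPKM in each of the other 7 livers. Counts with it left out are given beside the results.

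The level of most of the 35 genes in FPKM was high and similar between genotypes. Together they had 3338 ± 188 FPKM (n = 4, SD) in controls and 3343 ± 268 FPKM (n = 4, SD) in *Usp39*-HKO livers, and the groups overlapped. Of the 35 genes, 33 passed the filter of at least 0.5 FPKM in at least 4 of the 8 livers, and *Cpt1b* and *Cpt1c* did not. Mean FPKM over the 8 livers of the 33 ranged from 4.30 for *Acsl3* to 607 for *Acaa2*, with 11 genes over 100 FPKM. Per length, *Acaa2* was followed in controls by *Acsl1* (mean 241 FPKM), *Acadl* (212), *Cpt1a* (204) and *Acadm* (201). In *Usp39*-HKO livers it was followed by *Acadl* (mean 234 FPKM), *Cpt1a* (190.5), *Acadm* (186), *Etfa* (185) and *Acsl1* (161). Within each genotype, the values of neighbours in the order after *Acaa2* overlapped.

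**Figure D1:**
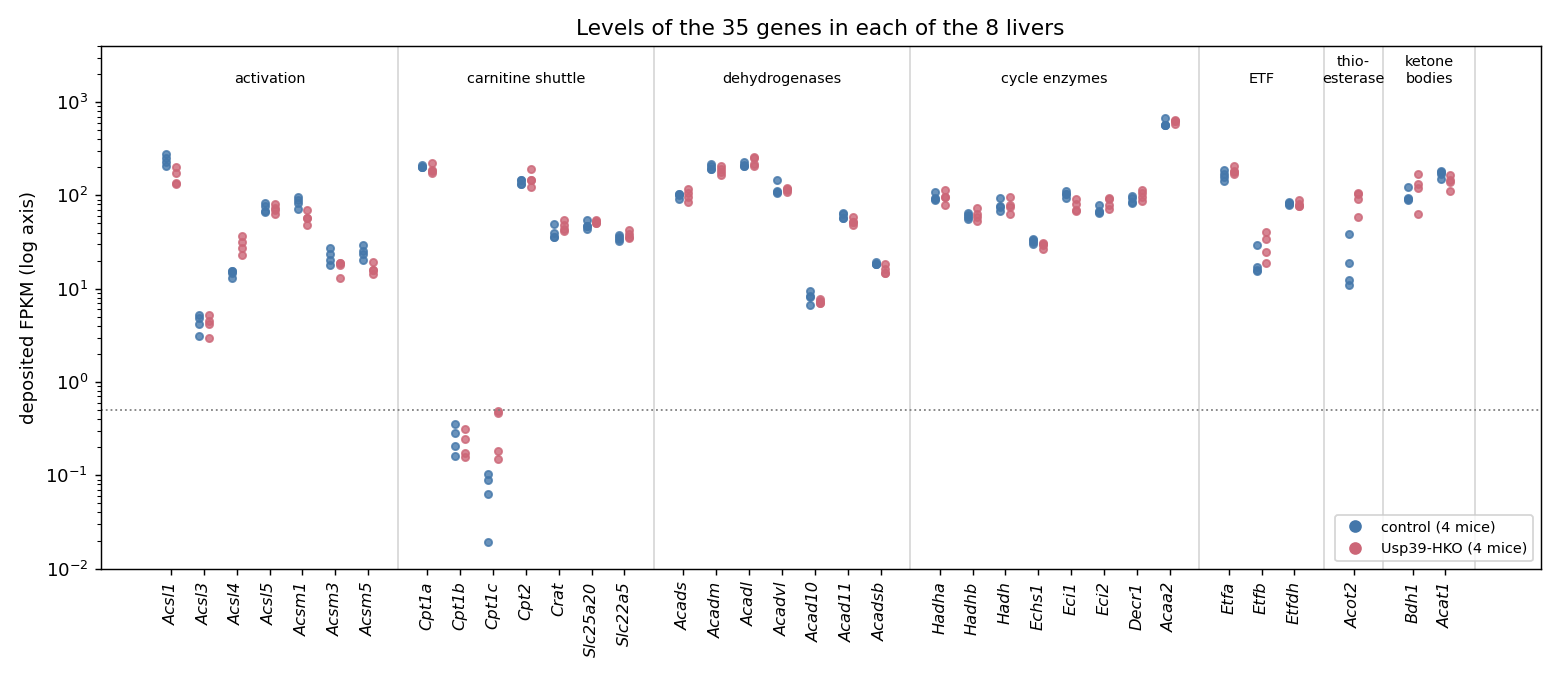
Deposited FPKM of each of the 35 genes on a log axis, with 1 point per liver, 4 control livers in blue and 4 *Usp39*-HKO livers in red, grouped by role. The dotted line is the filter of 0.5 FPKM, under which *Cpt1b* and *Cpt1c* lie, and the groups separate upwards for *Acsl4* and *Acot2* and downwards for *Acsl1*, *Acsm1*, *Acsm5*, *Acadsb* and *Eci1*.

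The test between genotypes was edgeR's quasi-likelihood test on the deposited counts of all 14340 genes past the filter, with scaling factors that set the typical gene to no change and with Benjamini-Hochberg adjustment over all of them. A gene is called at an adjusted p under 0.05. Of the 33 genes, 10 fell (*Acsl1*, *Acsm1*, *Acsm3*, *Acsm5*, *Acad10*, *Acad11*, *Acadsb*, *Echs1*, *Eci1* and *Acat1*), whereas 11.6% of all genes tested fell. Only *Acsl4* and *Acot2* rose, whereas 10.9% of all genes tested rose. The other 21 were not called, with log2 fold changes from −0.34 to 0.37. The median log2 fold change of the 33 genes was −0.24, beside −0.0015 for all genes tested and −0.41 for the 8 hepatocyte markers. The part of a general change of hepatocyte RNA in the falls was not tested.

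The number of falls depended on scaling and on single livers. Without scaling factors the median of all genes tested was 0.24 and that of the 33 genes −0.0042, and 4 of the 33 fell (*Acsl1*, *Acsm1*, *Acsm5* and *Eci1*) while the same 2 rose. Of all genes tested, 696 then fell and 3525 rose, against 1664 and 1561 with the factors. A fall therefore means lower than the typical gene of these livers, and for the 6 falls outside those 4 no call remained on the unscaled values. The number of falls was 6 without control mouse A468, 5 without control mouse A473 and 6 without control mouse A475. Of all genes tested, 7.91%, 6.62% and 7.13% fell in these fits. With any 1 liver left out, the number of falls lay between 5 and 11, and the number of rises was 2 each time. Over all genes tested, 6.62% to 11.6% then fell and 6.85% to 12.9% rose.

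On scaled counts, the shift was present in each *Usp39*-HKO liver. On the log2 scale of counts scaled to the library total and the TMM factor (TMM CPM), the median deviation of the 33 genes from the control mean was 0.0095, 0.091, −0.046 and −0.043 in control mice A468, A472, A473 and A475. It was −0.30, −0.13, −0.22 and −0.38 in *Usp39*-HKO mice A469, A470, A471 and A474, so the groups did not overlap. On TMM CPM, every *Usp39*-HKO value lay below every control value in 13 of the 33 genes, beside 12.9% of all genes tested. Every one lay above in 2 of the 33, beside 11.9% of all genes tested. The 13 comprised the 10 that fell and *Cpt1a*, *Acadm* and *Etfdh*. On unscaled FPKM this held for 5 genes below (*Acsl1*, *Acsm1*, *Acsm5*, *Acadsb* and *Eci1*) and for the same 2 above. The share of all genes tested was not counted on that scale, so these 2 numbers have no background beside them.

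**Figure D2:**
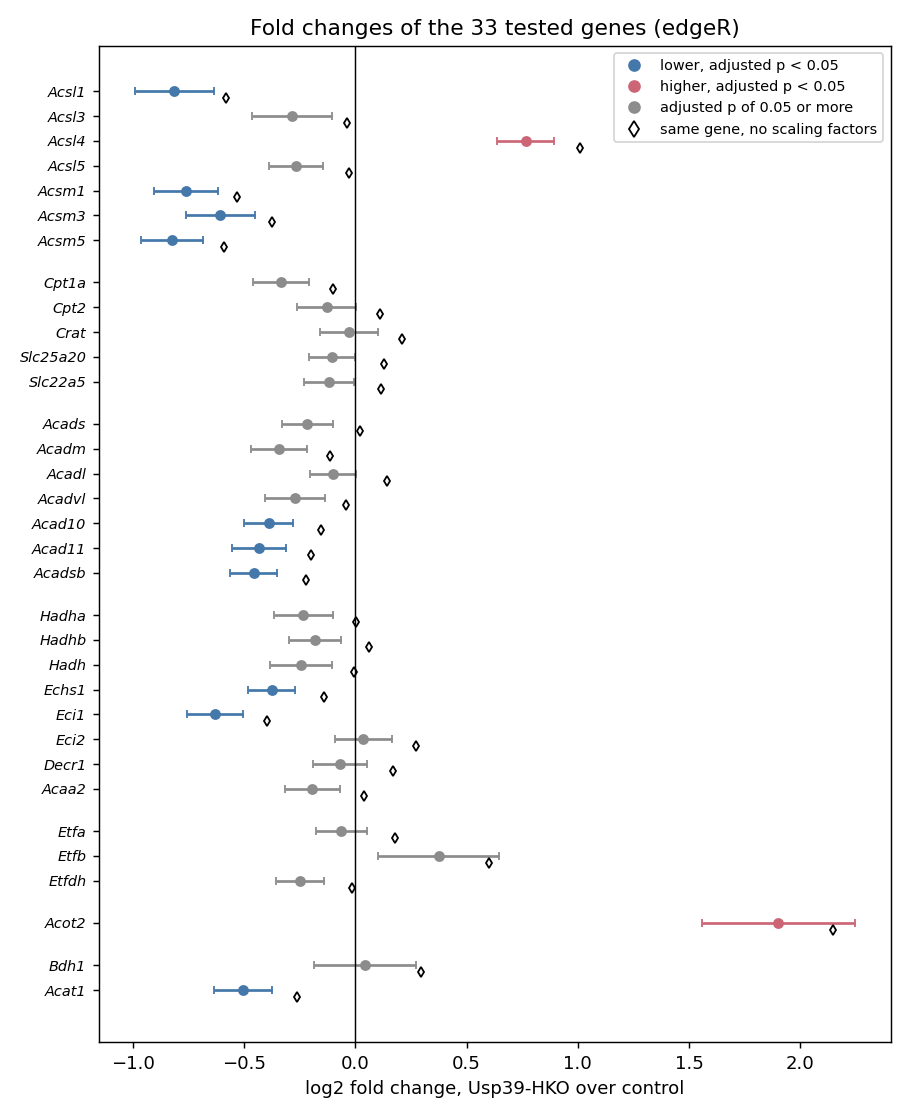
Log2 fold changes, *Usp39*-HKO against control, of the 33 tested genes in edgeR, with bars of 1 SE and colour by call, and the same value without scaling factors as an open diamond. The diamonds lie to the right of the points, by which 11 of the genes cross 0, whereas *Acsl1*, *Acsm1*, *Acsm5* and *Eci1* stay well below it and *Acsl4* and *Acot2* well above.

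Fatty acid activation held the largest falls. Among the long-chain acyl-CoA synthetases, *Acsl1* (ENSMUSG00000018796, chr8:46471037-46536051, plus strand), which encodes the main isoform of the liver, had 249.7, 279, 229 and 208 FPKM in controls and 133, 202, 175 and 135 FPKM in *Usp39*-HKO livers. The highest *Usp39*-HKO liver stayed under the lowest control. It was 1.76-fold lower (log2 fold change −0.81, SE 0.18, adjusted p = 0.00825 in edgeR). *Acsl4* (ENSMUSG00000031278, chrX:142317993-142390535, minus strand), whose enzyme prefers arachidonic acid, went the other way, with 15.6, 12.9, 15.5 and 14.9 FPKM in controls and 22.8, 36.5, 27.6 and 31.5 FPKM in *Usp39*-HKO livers. All *Usp39*-HKO values were higher than all control values. It was 1.70-fold higher (log2 fold change 0.77, SE 0.13, adjusted p = 0.00267 in edgeR). Both calls were kept in all 16 alternatives run. *Acsl5*, at 72.6 FPKM over the 8 livers, and *Acsl3*, at 4.30 FPKM, were not called (log2 fold changes −0.27 and −0.29).

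Markers of some other liver cells, but not of all, rose beside *Acsl4*. The 8 stellate cell and fibroblast markers summed to between 67.5 and 78.1 FPKM in controls and between 113 and 245 FPKM in *Usp39*-HKO livers, and 7 of 8 rose. Macrophage markers rose in 6 of 7 and summed to between 324 and 411 FPKM in controls and between 547 and 864 FPKM in *Usp39*-HKO livers. Of 6 cholangiocyte markers, 4 were tested and rose, and the 6 summed to between 26.5 and 28.7 FPKM in controls and between 64.2 and 286 FPKM in *Usp39*-HKO livers. Of 6 adipocyte markers, only 1 passed the filter, and it rose, while *Ucp1* and *Retn* were at 0. The 6 summed to between 47.4 and 107.5 FPKM in controls and between 111 and 173 FPKM in *Usp39*-HKO livers. With 1 gene tested, a rise of adipocytes cannot be read from this list. The part of these cells in the rise of *Acsl4* was not tested. Erythroid markers, of which 5 of 6 were tested, fell in all 5, with sums between 369 and 772 FPKM in controls and between 155 and 365 FPKM in *Usp39*-HKO livers. Of 7 endothelial markers 2 fell and none rose, with sums of 104 to 115 FPKM in controls and 109 to 115 FPKM in *Usp39*-HKO livers. Of 7 lymphocyte and neutrophil markers 6 were tested and 1 rose, with sums of 23.5 to 51.5 FPKM and 17.5 to 80.4 FPKM. Beside these counts, 10.9% of all genes tested rose and 11.6% fell. With so few genes, 1 rise of 6 and 2 falls of 7 are not read as a result.

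The medium-chain acyl-CoA synthetases, which activate shorter fatty acids inside the mitochondrion, fell in all 3 members, with *Acsm1* and *Acsm5* but not *Acsm3* called without scaling factors. They lie close together on chromosome 7, all on the plus strand, with *Acsm5* (chr7:119519463-119545551) before *Acsm1* (chr7:119607026-119662515) and *Acsm3* (chr7:119760923-119787513). *Acsm1* had 95.1, 82.2, 71.8 and 88.7 FPKM in controls and 57.3, 70.2, 57.4 and 48.6 FPKM in *Usp39*-HKO livers, a 1.69-fold lower level (log2 fold change −0.76, SE 0.14, adjusted p = 0.00435 in edgeR). *Acsm5* had 29.3, 25.2, 20.6 and 23.5 FPKM in controls and 15.7, 19.3, 16.0 and 14.2 FPKM in *Usp39*-HKO livers, a 1.77-fold lower level (log2 fold change −0.82, SE 0.14, adjusted p = 0.00272 in edgeR). In both genes the groups did not overlap, and both calls were kept in all 16 alternatives.
*Acsm3* had 20.3, 17.7, 23.8 and 27.4 FPKM in controls and 19.1, 18.7, 13.2 and 17.8 FPKM in *Usp39*-HKO livers, which overlapped. Its log2 fold change was −0.61 (SE 0.16, adjusted p = 0.0174 in edgeR), and the call was lost without control mouse A473 (adjusted p = 0.0557) or A475 (0.0598). Exons of *Eri2* on the opposite strand cover 39.7% of its exon bases, and whether the counting used strand is not given in the sources used here.

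Within a liver, the make-up of this first step can be read without scaling. *Acsl1* made up 72.1%, 73.9%, 72.6% and 70.2% of the summed FPKM of the 4 *Acsl* genes in control mice A468, A472, A473 and A475, and 58.2%, 62.5%, 64.8% and 55.0% in *Usp39*-HKO mice A469, A470, A471 and A474. The groups did not overlap, and the share was lower by 12.1 percentage points (72.2% ± 1.54 against 60.1% ± 4.38, n = 4 each, SD, exact two-sided permutation test, p = 0.029, under which 4 livers against 4 cannot go). Adjusted over the 6 within-liver comparisons made here, p was 0.086. Since *Acsl1* fell and *Acsl4* rose in the test above, this share is not independent of those calls. The share of *Acsm1* in its 3 genes came to 64.2% ± 1.89 in controls and 63.4% ± 2.69 in *Usp39*-HKO livers (n = 4 each, SD, exact permutation test, p = 0.657).

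No gene of the carnitine shuttle was called. *Cpt1a* (ENSMUSG00000024900, chr19:3322334-3385733, plus strand), which encodes the outer membrane enzyme that sets the rate of entry into the mitochondrion, had 204, 209.6, 201 and 204 FPKM in controls and 182, 220.5, 174 and 186 FPKM in *Usp39*-HKO livers. *Usp39*-HKO mouse A470 was above all controls, and the other 3 were below. Its log2 fold change was −0.34 (SE 0.13, adjusted p = 0.0768 in edgeR), with an adjusted p of 0.0136 in DESeq2 and 0.0441 without A470. *Cpt2*, the inner membrane partner, had 140.4 ± 8.43 FPKM in controls and 151 ± 28.5 FPKM in *Usp39*-HKO livers (n = 4 each, SD). The log2 ratio of *Cpt1a* to *Cpt2* came to 0.54 ± 0.094 in controls and 0.35 ± 0.17 in *Usp39*-HKO livers (n = 4 each, SD, exact permutation test, p = 0.086, adjusted over 6 comparisons 0.17), with overlap.

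The muscle and brain forms of the enzyme had very low listed levels in these livers. *Cpt1b*, the form of muscle, had between 0.161 and 0.359 FPKM in controls and between 0.156 and 0.311 FPKM in *Usp39*-HKO livers, from 5 to 12 counts per liver. Exons of *Gm44502* on the same strand cover 81.4% of its exon bases, so the level of *Cpt1b* is uncertain. Of 6 skeletal muscle markers, none passed the filter, and they summed to at most 0.154 FPKM in a control and between 0.0355 and 0.573 FPKM in *Usp39*-HKO livers. Of these, *Ckm*, *Myh4* and *Mb* were at 0 in all 8 livers, which allows up to 0.349 CPM (counts scaled to the library total) in a liver. *Cpt1c*, the form of neurons, had 0.0194, 0.0900, 0.0623 and 0.103 FPKM in controls and 0.184, 0.490, 0.150 and 0.470 FPKM in *Usp39*-HKO livers, from 1 to 28 counts. The groups of *Cpt1c* did not overlap, and in a fit without the filter on low values it was called higher. The exchanger *Slc25a20*, the carnitine transporter *Slc22a5* and the carnitine acetyltransferase *Crat* had log2 fold changes between −0.12 and −0.03, and these 3 and *Cpt2* had the opposite sign without scaling factors. *Slc22a5* shares 27.1% of its transcript with *Slc22a21*, which had at most 0.988 FPKM in any liver.

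Among the acyl-CoA dehydrogenases, which take the first electrons from the acyl chain, the genes of the classical chain-length series were not called, and the 3 that fell were the less abundant *Acad11*, *Acad10* and *Acadsb*. *Acadl* (ENSMUSG00000026003, chr1:66830839-66863277, minus strand), the long-chain enzyme and the most abundant of them, had 209, 227, 207 and 206 FPKM in controls and 206, 255, 215 and 259.7 FPKM in *Usp39*-HKO livers (log2 fold change −0.10, SE 0.10, adjusted p = 0.533 in edgeR, and 0.14 without scaling factors). The medium-chain *Acadm* had 201 ± 11.6 FPKM in controls and 186 ± 17.7 FPKM in *Usp39*-HKO livers (n = 4 each, SD), with an adjusted p of 0.0697 in edgeR and 0.0229 in DESeq2. The very long-chain *Acadvl* and the short-chain *Acads* had log2 fold changes of −0.27 and −0.22, and that of *Acads* was 0.020 without scaling factors. Exons of *Dvl2* on the opposite strand cover 42.9% of the exon bases of *Acadvl*.

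*Acadsb* (ENSMUSG00000030861, chr7:131410601-131448944, plus strand), which acts on short branched chains from isoleucine, had 18.4, 18.6, 18.6 and 19.4 FPKM in controls and 14.7, 18.4, 16.3 and 14.9 FPKM in *Usp39*-HKO livers. The controls were nearly equal, and the highest *Usp39*-HKO liver was just below the lowest of them. The log2 fold change was −0.46 (SE 0.11, adjusted p = 0.0107 in edgeR) and stayed called with any 1 liver left out. *Acad11* (ENSMUSG00000090150, chr9:104063377-104127725, plus strand), which acts on long and very long chains, had 63.1, 64.9, 57.9 and 57.5 FPKM in controls and 51.8, 59.1, 52.1 and 48.5 FPKM in *Usp39*-HKO livers, with overlap through A470. Its log2 fold change was −0.43 (SE 0.12, adjusted p = 0.0249 in edgeR). The call was lost without A468 (adjusted p = 0.0689), A471 (0.0567), A472 (0.0506), A473 (0.0588) or A474 (0.0545).
*Acad10* (ENSMUSG00000029456, chr5:121621026-121660514, minus strand) had 8.31, 6.63, 8.12 and 9.44 FPKM in controls and 7.09, 7.34, 7.01 and 7.74 FPKM in *Usp39*-HKO livers, which overlapped (log2 fold change −0.39, SE 0.11, adjusted p = 0.0274 in edgeR). This call was lost without A468 (adjusted p = 0.071), A471 (0.0612), A473 (0.0712), A474 (0.0712) or A475 (0.0944), and under a filter of at least 5 FPKM on average (0.0599). *Acad10* shares 29.7% of its transcript with *Acad12*, which had 2.87 ± 0.618 FPKM in controls and 4.41 ± 2.11 FPKM in *Usp39*-HKO livers (n = 4 each, SD).

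**Figure D3:**
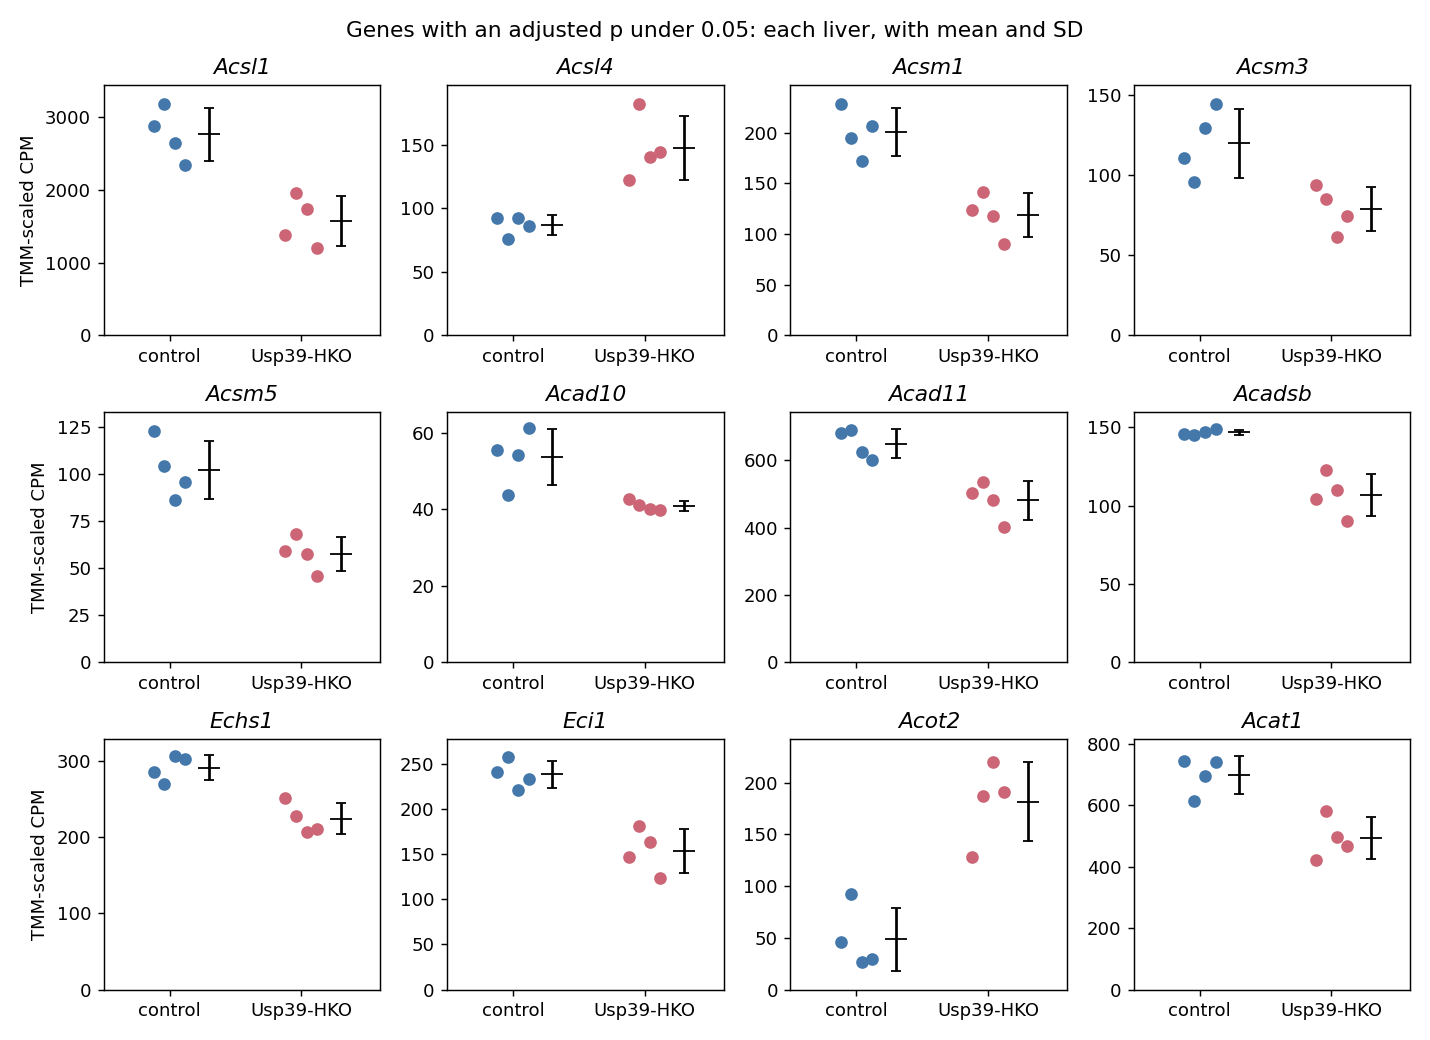
TMM CPM (counts scaled to the library total and the TMM factor) of the 12 genes with an adjusted p under 0.05, with 1 point per liver and the mean and SD of the 4 livers of each genotype beside it. In all 12 panels the groups are apart on this scale, 10 downwards and, for *Acsl4* and *Acot2*, upwards, and without scaling factors the call stands in 4 of the 10 and in both rises.

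In the rest of the beta-oxidation cycle, *Eci1* and *Echs1* fell and the other 6 genes were not called. The thiolase *Acaa2* (ENSMUSG00000036880, chromosome 18), which performs the last step, had the highest level of all 35 genes, with 575, 675, 574 and 574 FPKM in controls and 622, 621, 640.4 and 576 FPKM in *Usp39*-HKO livers. Its values overlapped (log2 fold change −0.19, SE 0.12, adjusted p = 0.292 in edgeR, and 0.038 without scaling factors). *Eci1* (ENSMUSG00000024132, chr17:24426641-24439348, plus strand), an enoyl-CoA isomerase that prepares unsaturated chains for the cycle, had 103, 111, 94.5 and 103 FPKM in controls and 69.5, 91.9, 81.5 and 68.5 FPKM in *Usp39*-HKO livers. All *Usp39*-HKO values were lower than all control values. It was 1.55-fold lower (log2 fold change −0.63, SE 0.13, adjusted p = 0.00555 in edgeR) and called in all 16 alternatives.

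The paralog *Eci2*, whose enzyme has the same activity in mitochondria and peroxisomes, had 65.0, 79.3, 68.4 and 66.0 FPKM in controls and 93.8, 78.6, 71.8 and 91.7 FPKM in *Usp39*-HKO livers (log2 fold change 0.04, SE 0.13, adjusted p = 0.875 in edgeR). Between the isomerases the order was turned in some livers. *Eci1* was 1.58, 1.40, 1.38 and 1.55 times the level of *Eci2* in controls, and 0.741, 1.17, 1.14 and 0.747 times in *Usp39*-HKO mice A469, A470, A471 and A474. The ratio was below 1 in A469 and A474 and above 1 in the other 6 livers, with no overlap between the genotypes (log2 ratio 0.56 ± 0.10 against −0.11 ± 0.36, n = 4 each, SD, exact two-sided permutation test, p = 0.029, adjusted over 6 comparisons 0.086). As *Eci1* fell in the test above, this ratio is not independent of that call.

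*Echs1* (ENSMUSG00000025465, chr7:140105710-140116476, minus strand), the short-chain hydratase, had 31.3, 30.0, 33.6 and 34.2 FPKM in controls and 30.6, 29.8, 26.5 and 30.0 FPKM in *Usp39*-HKO livers, with overlap. Its log2 fold change was −0.38 (SE 0.11, adjusted p = 0.0251 in edgeR). The call was lost without A468 (adjusted p = 0.0549), A471 (0.0722), A473 (0.0829), A474 (0.0629) or A475 (0.073), and under the same filter on the mean FPKM (0.0525). The trifunctional protein genes *Hadha* (96.2 ± 9.0 against 96.3 ± 14.1 FPKM, SD, n = 4 each) and *Hadhb* (60.1 ± 3.32 against 62.5 ± 8.46 FPKM) had log2 fold changes of −0.24 and −0.18, which were 0.0033 and 0.059 without scaling factors. *Hadha* was 1.6 ± 0.0926 times *Hadhb* in controls and 1.54 ± 0.0632 times in *Usp39*-HKO livers (n = 4 each, SD, exact permutation test on the log2 ratio, p = 0.286). *Hadhb* shares 69.7% of its transcript with *Gm13910*, which is listed at between 59.9 and 109 FPKM, so the level of *Hadhb* is uncertain. *Hadh*, which acts on short chains, and *Decr1*, needed for polyunsaturated chains, were not called (log2 fold changes −0.24 and −0.07, the latter 0.17 without scaling factors).

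**Figure D4:**
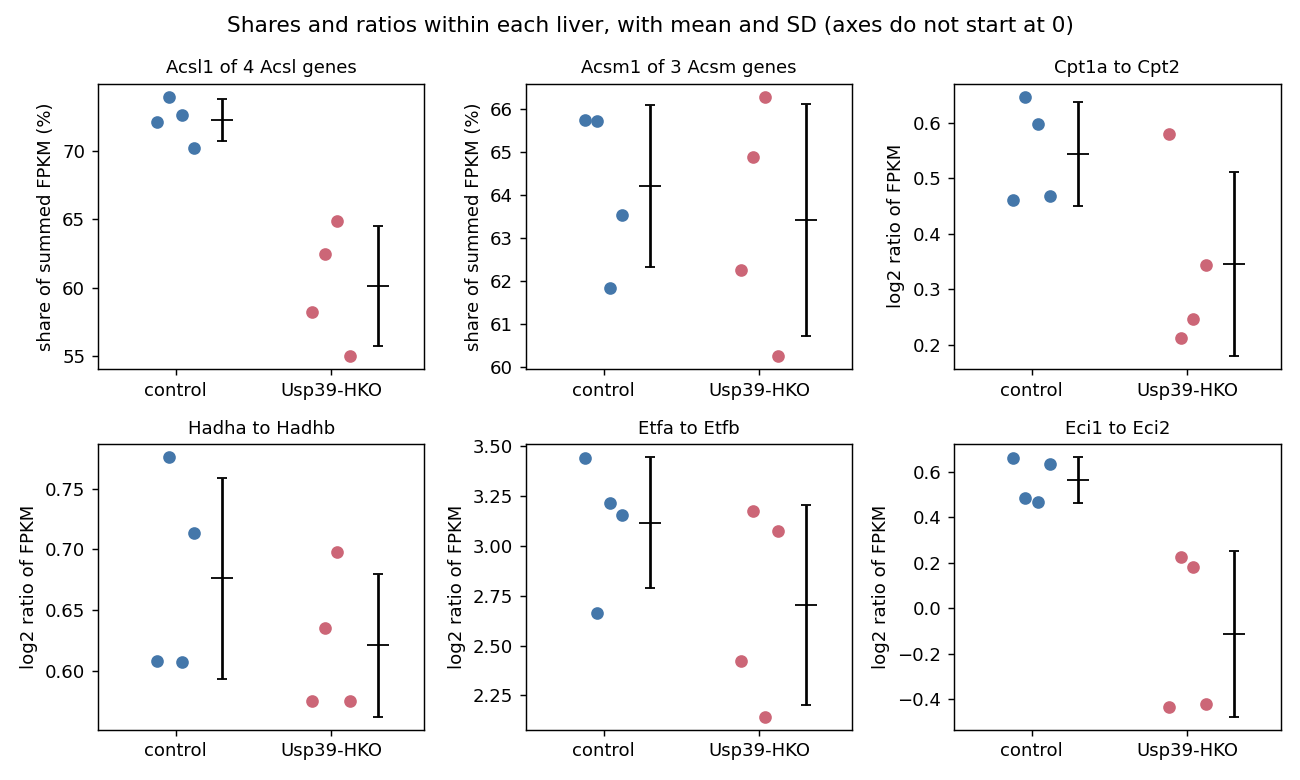
The 6 within-liver comparisons, as shares of summed FPKM in percent or log2 ratios of FPKM, with 1 point per liver and the mean and SD of the 4 livers of each genotype, on axes that do not start at 0. The genotypes are apart for the share of *Acsl1* (72.2% against 60.1%) and for *Eci1* to *Eci2* (0.56 against −0.11), and overlap in the other 4.

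The electron transfer flavoprotein genes were not called. *Etfa* (ENSMUSG00000032314, chr9:55454508-55512243, minus strand), the alpha subunit, had 169, 187, 157 and 141 FPKM in controls and 182, 169, 180.3 and 208 FPKM in *Usp39*-HKO livers (log2 fold change −0.06, SE 0.12, adjusted p = 0.744 in edgeR, and 0.18 without scaling factors). *Etfdh*, which hands the electrons to ubiquinone, had 82.1 ± 2.50 and 81.1 ± 5.31 FPKM (n = 4 each, SD), and its adjusted p was 0.121 in edgeR and 0.0414 in DESeq2. *Etfb*, the beta subunit, was the most variable of the 3, with 15.6, 29.5, 16.9 and 15.9 FPKM in controls and 33.9, 18.7, 40.8 and 24.6 FPKM in *Usp39*-HKO livers. Its listed level was far under that of *Etfa*, with a mean ratio of *Etfa* to *Etfb* of 8.83 ± 1.87 in controls and 6.81 ± 2.26 in *Usp39*-HKO livers (n = 4 each, SD, exact permutation test on the log2 ratio, p = 0.20). Exons of *Gm45233* on the same strand cover 58.2% of its exon bases, and that gene had at most 1 count in a liver, so the level of *Etfb* is uncertain.

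*Acot2* (ENSMUSG00000021226, chr12:83987861-83993873, plus strand), a mitochondrial thioesterase that releases coenzyme A from long-chain acyl-CoA, rose most of the 33 genes. It had 18.9, 38.6, 11 and 12.5 FPKM in controls and 59.0, 91.9, 106 and 102 FPKM in *Usp39*-HKO livers. Control mouse A472 was the highest control and still under the lowest *Usp39*-HKO liver, A469. It was 3.74-fold higher (log2 fold change 1.9, SE 0.34, adjusted p = 0.00348 in edgeR), and with any 1 liver left out the log2 fold change lay between 1.70 and 2.42. *Acot2* shares 30.5% of its transcript with *Acot1*, in a stretch of 669 bases at 97.3% identity. *Acot1*, the cytosolic paralog, had 63.3, 133, 64.3 and 60.3 FPKM in controls and 102, 111, 132 and 99.9 FPKM in *Usp39*-HKO livers, and was not called (log2 fold change 0.24, SE 0.24, adjusted p = 0.519 in edgeR), so the split of reads between both genes is uncertain. A472 was high in both.

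Of the ketone body genes among the 35, *Acat1* fell and *Bdh1* was not called. *Acat1* (ENSMUSG00000032047, chr9:53580522-53610382, minus strand) encodes the mitochondrial thiolase that forms acetoacetyl-CoA, and had 179.7, 149.8, 168 and 185 FPKM in controls and 113, 168, 140.2 and 147 FPKM in *Usp39*-HKO livers. A470 lay within the control range, and the other 3 *Usp39*-HKO livers were below all controls. The log2 fold change was −0.50 (SE 0.13, adjusted p = 0.0179 in edgeR). The call was lost without A468 (adjusted p = 0.0532), A473 (0.051) or A475 (0.0575). *Bdh1*, the dehydrogenase that makes beta-hydroxybutyrate, had 93.5, 124, 90.8 and 89.9 FPKM in controls and 63.1, 169, 121 and 133 FPKM in *Usp39*-HKO livers. The *Usp39*-HKO livers spanned both sides of the controls, with A469 the lowest of all 8 livers and A470 the highest (log2 fold change 0.04, SE 0.23, adjusted p = 0.917 in edgeR).

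The other genes of the pathway comprised 36 symbols, of which 30 were tested. Of these, 8 fell and 4 rose (26.7% and 13.3%, beside 11.6% and 10.9% of all genes tested). Without scaling factors 2 fell and 5 rose (6.67% and 16.7%, beside 4.85% and 24.6% of all genes tested). The falls were 5 without A473, A474 or A475, and the rises were 2 without A474 or A475. Of all genes tested, 6.62%, 7.41% and 7.13% fell without A473, A474 and A475, and 7.19% and 7.11% rose without A474 and A475. *Pdk4*, a kinase that restrains pyruvate oxidation, had 33.6, 63.0, 39.0 and 27.8 FPKM in controls and 112, 151, 239 and 255 FPKM in *Usp39*-HKO livers (log2 fold change 1.96, SE 0.28, adjusted p = 0.00134 in edgeR). The groups did not overlap, and A472 was again the highest control. *Ppara*, which encodes the receptor named above, had 69.8, 76.1, 57.5 and 70.5 FPKM in controls and 42.3, 53.1, 45.2 and 39.8 FPKM in *Usp39*-HKO livers. It was 1.78-fold lower (log2 fold change −0.83, SE 0.13, adjusted p = 0.00209 in edgeR), with no overlap. *Hsd17b10*, whose enzyme acts on short branched acyl-CoA and in mitochondrial RNA processing, had 301, 324, 356 and 341 FPKM in controls and 250.02, 214, 224 and 196 FPKM in *Usp39*-HKO livers, again with no overlap (log2 fold change −0.81, SE 0.13, adjusted p = 0.0023 in edgeR). The thioesterase *Acot9* rose (log2 fold change 1.18, SE 0.21, adjusted p = 0.00348 in edgeR) from 2.53 ± 0.558 FPKM in controls to 6.78 ± 1.70 FPKM in *Usp39*-HKO livers (n = 4 each, SD).

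By list, the odd-chain genes, which carry propionyl-CoA into the citric acid cycle, fell in 3 of 4, none of which was called without scaling factors. *Pcca* (log2 fold change −0.48, adjusted p = 0.00621 in edgeR) and *Mmut* (−0.48, adjusted p = 0.0095) were among them. Of the regulators 2 of 9 fell and 1 rose, and of the other mitochondrial genes 3 fell and 1 rose among 9 tested of 15. Of all genes tested, 11.6% fell and 10.9% rose. With so few genes, 1 rise of 9 is near the latter share, and without scaling factors 1 gene of each of these 2 lists fell. *Acsl6* was at 0 in all 8 livers. Among the other ketone body genes, 2 rose. These were *Oxct1* and *Slc16a1*, named after their values were seen. *Oxct1*, the ketone-using transferase that hepatocytes nearly lack, had 1.6 ± 0.137 FPKM in controls and 3.36 ± 1.19 FPKM in *Usp39*-HKO livers (n = 4 each, SD, log2 fold change 0.81, adjusted p = 0.0204 in edgeR). The stellate cell, macrophage and cholangiocyte markers given above moved with it, and their part was not tested. The call of *Oxct1* was lost without A474 or A475, with an adjusted p of at most 0.0616. *Slc16a1*, which exports ketone bodies, had 41.6 ± 13.4 FPKM in controls and 74.2 ± 11.6 FPKM in *Usp39*-HKO livers (n = 4 each, SD, log2 fold change 0.60, adjusted p = 0.047 in edgeR), and the call was lost without A468, A470, A471, A473, A474 or A475, with an adjusted p of up to 0.131.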

How the data were processed

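RNA of 8 livers, 4 control and 4 *Usp39*-HKO, was measured with 1 library per mouse. Per the methods of the study, the authors aligned reads to mm10 with HISAT2 and assigned them to genes with featureCounts. The authors deposited raw counts per gene, without normalization, and FPKM computed from counts, exon length and library total. The annotation release and the use of strand are not given in the sources used here. The deposited exon length of all 35 members equalled the union of exons in GENCODE vM21, which gave coordinates and overlaps. Columns of the authors' DESeq2 comparison (mean normalized signal, log2 fold change, its standard error, statistic, p-values and a change label) were not used, and 0 columns of samples could not be mapped.

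Genes reaching 0.5 FPKM in 4 or more of the 8 mice (14340) entered edgeR 4.0.16, run on the counts without covariates, with TMM factors from 0.911 to 0.940 (controls) and from 1.01 to 1.19 (*Usp39*-HKO). The SE given with edgeR values is the absolute log2 fold change divided by the square root of the quasi-likelihood F statistic. Single values and within-liver ratios were compared with two-sided exact permutation tests over the 70 assignments of mice. Shared sequence was sought with BLAST+ 2.17.0+ (at least 150 bases at 97% identity). Totals of 8589636 to 10418450 counts put 3 counts at 0.288 to 0.349 CPM, and such floors cover counting error only. Simulated counts with known changes were used to check the tests. Alternatives were DESeq2 1.42.0, limma 3.58.1 on log2(FPKM + 1) and log2(FPKM + 0.1), voom with quality weights, median-ratio and no scaling, other filters, the study's cutoff (unadjusted p under 0.05 and a log2 fold change beyond 0.5) and leaving out each mouse.

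The members, the lists and the tests were chosen with earlier results of these data known. All 35 members are accounted for, with full statistics for those called and for the most abundant of each role. Of the other genes of the pathway, the 6 with the smallest adjusted p are named, of markers only lists and defining genes at 0. Outside this rule, *Oxct1*, *Slc16a1* and *Acsl6* were named after their values were seen, and genes that share sequence or exons with a member, such as *Acot1*, beside that member. The labels name no batch and nothing on shared cages, so p-values measure the spread between these mice. Some genes of the ketone body list are not reported here.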

Additional observations from a re-analysis of the deposited data

Results flagged for a closer look

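A liver was set apart where its gap to the nearest of the other 3 livers of its genotype took up more of the range of the 4 than Dixon's critical value at the 95% level allows. Of 100 sets of 4 tested, 9 were set apart, and chance gives about 5.

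In 6 of the 9 the liver was control mouse A472, always the highest of the controls. It had 227 FPKM for *Acadl* (other controls 206 to 209), 148 for *Acadvl* (107 to 112), 109.6 for *Hadha* (90.2 to 93.2), 675 for *Acaa2* (574 to 575), 29.5 for *Etfb* (15.6 to 16.9) and 124 for *Bdh1* (89.9 to 93.5). These 6 genes were not called. A472 also had the lowest weight of the controls in the voom fit (0.552), and the median deviation of the 33 genes from the control mean was highest in it (0.091 on the log2 scale). Without A472, 9 of the 33 genes fell and 2 rose, beside 11.6% and 11.1% of all genes tested.

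*Acads* was set apart in control mouse A468, with 92.5 FPKM beside 102 to 103 in the other controls. *Acadsb* had 19.4 FPKM in control mouse A475, beside 18.4 to 18.6, a small gap within very close values, and stayed called without A475. *Acot9* had 4.26 FPKM in *Usp39*-HKO mouse A469, beside 7.42 to 7.88 in the other *Usp39*-HKO livers, and still lay above all controls.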

How the results depend on the processing

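The number of the 33 genes that fell was 10 with the main settings and with median-ratio scaling, 13 in DESeq2, 12 with voom, 8 with a mean FPKM of at least 5, 4 without scaling factors and in limma at both pseudocounts, and 6 at the study's cutoff. Leaving out 1 mouse gave 5 to 11. The number that rose was 2 in all of these and 3 without the filter. Of all genes tested, 11.6% fell with the main settings, 11.2% with median-ratio scaling, 12.4% in DESeq2 and 15.2% with voom. The share was 12.7% with a mean FPKM of at least 5, 4.85% without scaling factors, and 4.44% and 4.37% in limma at 1 and 0.1. At the study's cutoff, 1379 of the 14340 genes fell and 1737 rose. The share that rose was 10.9% with the main settings, 11.2% with median-ratio scaling, 11.9% in DESeq2 and 14.0% with voom. It was 11.2% with a mean FPKM of at least 5, 24.6% without scaling factors, 21.1% and 21.3% in limma at 1 and 0.1, and 6.41% without the filter. The median log2 fold change of the 33 genes was −0.0042 without scaling factors and −0.013 and −0.014 in limma at a pseudocount of 1 and 0.1. Of the other genes of the pathway 2 fell without scaling factors, and leaving out 1 mouse gave 5 to 9 falls and 2 to 5 rises. Without scaling factors and in limma on FPKM the level of the typical gene is left in, and fits without 1 mouse have fewer samples. No other cause was tested. Of the within-liver differences, the share of *Acsl1* lay between −13.6 and −10.4 percentage points with 1 mouse left out and at −8.75 on raw counts, and *Eci1* to *Eci2* between −0.79 and −0.57.

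Signs turned in genes that were not called. Without scaling factors, in limma at 1 and in limma at 0.1, log2 fold changes were 0.11, 0.089 and 0.090 for *Cpt2*, 0.21, 0.21 and 0.21 for *Crat*, 0.13, 0.13 and 0.13 for *Slc25a20*, 0.12, 0.11 and 0.11 for *Slc22a5*, 0.020, 0.0098 and 0.0098 for *Acads*, 0.14, 0.13 and 0.13 for *Acadl*, 0.059, 0.048 and 0.049 for *Hadhb*, 0.17, 0.16 and 0.16 for *Decr1*, 0.038, 0.038 and 0.038 for *Acaa2* and 0.18, 0.18 and 0.18 for *Etfa*. For *Hadha* it was 0.0033 without scaling factors. With a mean FPKM of at least 5, *Crat* had 0.052, *Decr1* 0.0087 and *Etfa* 0.017, and with voom *Crat* had 0.060. With 1 mouse left out, *Crat* ranged from −0.11 to 0.087, *Etfa* from −0.13 to 0.0056, *Eci2* from −0.041 to 0.10 and *Bdh1* from −0.17 to 0.26.

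No paired analysis was possible because the labels give no numbers shared between the genotypes. With 4 mice against 4, an exact permutation test cannot go below 0.029, and adjusted over 6 comparisons not below 0.086 when 2 are at that value. Few counts, from 1 to 28 per liver, limited *Cpt1b* and *Cpt1c*, and for *Cpt1b* the exons shared with *Gm44502* did so too.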
